A study of Sus scrofa with 8 samples.

Results

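The genes described here are 8 muscle genes known for their response to stretch and load: the ankyrin repeat genes ANKRD1, ANKRD2 and ANKRD23, the Xin repeat genes XIRP1 and XIRP2, and the LIM domain genes CSRP3, FHL1 and FHL3. They were picked out by gene symbol, 8 of the 23235 genes of the deposited table, with earlier results of these data known. Their RNA was measured in the longissimus dorsi, a long muscle of the back, of Duroc x Landrace x Yorkshire piglets that had been weaned and were 28 days old when they were divided at random into groups of 6. After 5 days of adaptation, one group was gavaged every morning for 23 days with melatonin dissolved in 10 mL of saline at 5 mg per kg of body weight, and the control group with the same volume of saline alone. All animals ate the same basal diet. Each group has 4 libraries, replicates 1 to 4, taken here as separate piglets because the labels give a group and a number only. P-values therefore measure the spread between these libraries.

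Muscle fibres sense stretch through proteins anchored in the elastic part and at the edges of the sarcomere, the contractile unit. The ankyrin repeat proteins bind titin, the giant spring protein of the sarcomere, and can also enter the nucleus, where they take part in gene regulation. CSRP3, also called muscle LIM protein, sits at the Z-disc, the plate that joins neighbouring sarcomeres, and is best known from heart and slow muscle fibres. The Xin proteins bind and bundle actin at fibre ends and at sites of repair, and FHL proteins are scaffolds built from LIM domains, zinc-binding modules that join proteins together. Genes of this kind are widely used as readouts of mechanical load, overload and injury of muscle.

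Among the 8 genes, ANKRD1 and CSRP3 differed most between the group means, in opposite directions, and neither difference was larger than the spread between libraries. ANKRD1 measured 31.2 ± 12.1 FPKM in controls and 91.4 ± 87.1 FPKM after melatonin (mean ± SD, n = 4 per group). FPKM is the fragment count scaled by transcript length and library size, so levels of different genes can be compared as far as the length used is right. CSRP3 measured 225 ± 255 and 95.3 ± 62.5 FPKM. ANKRD23, XIRP2 and FHL3 had log2 fold changes of -0.04, -0.01 and 0.01 on the counts. By edgeR's quasi-likelihood test on the counts, 0 of the 8 genes passed at an adjusted p under 0.05, as did 0% of all 9821 genes tested (smallest adjusted p over all genes = 0.440). At an unadjusted p under 0.05, 0 of the 8 stood against 10.5% of all genes, and DESeq2 called 0 of the 8, with no p for CSRP3, against 0.662% of all genes. The fold change was above 0 in 3 of the 8 and in 49.8% of all genes, and it reached 2-fold in 2 of the 8, ANKRD1 and CSRP3, and in 2.89% of all genes. In all 8 genes the FPKM ranges of the groups overlapped, where 2.2% of all genes had groups that did not overlap.

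Sequencing depth was alike in all libraries, with total counts from 53471667 to 60629098, and no library was a copy of another. Markers of fast and slow fibres were present in every library, as the tissue label implies. Libraries that stood apart did so in particular gene groups. Melatonin replicates 1 and 3 held summed levels of 9002 and 2786 FPKM over 12 fibroblast and tendon markers, against 506 to 994 FPKM in the other 6 libraries. Over 11 slow fibre genes, melatonin replicate 2 held 783 FPKM and control replicate 1 held 11188 FPKM, against 2395 to 6813 FPKM in the rest. Values without these libraries are given beside the main results below.

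**Figure D1:**
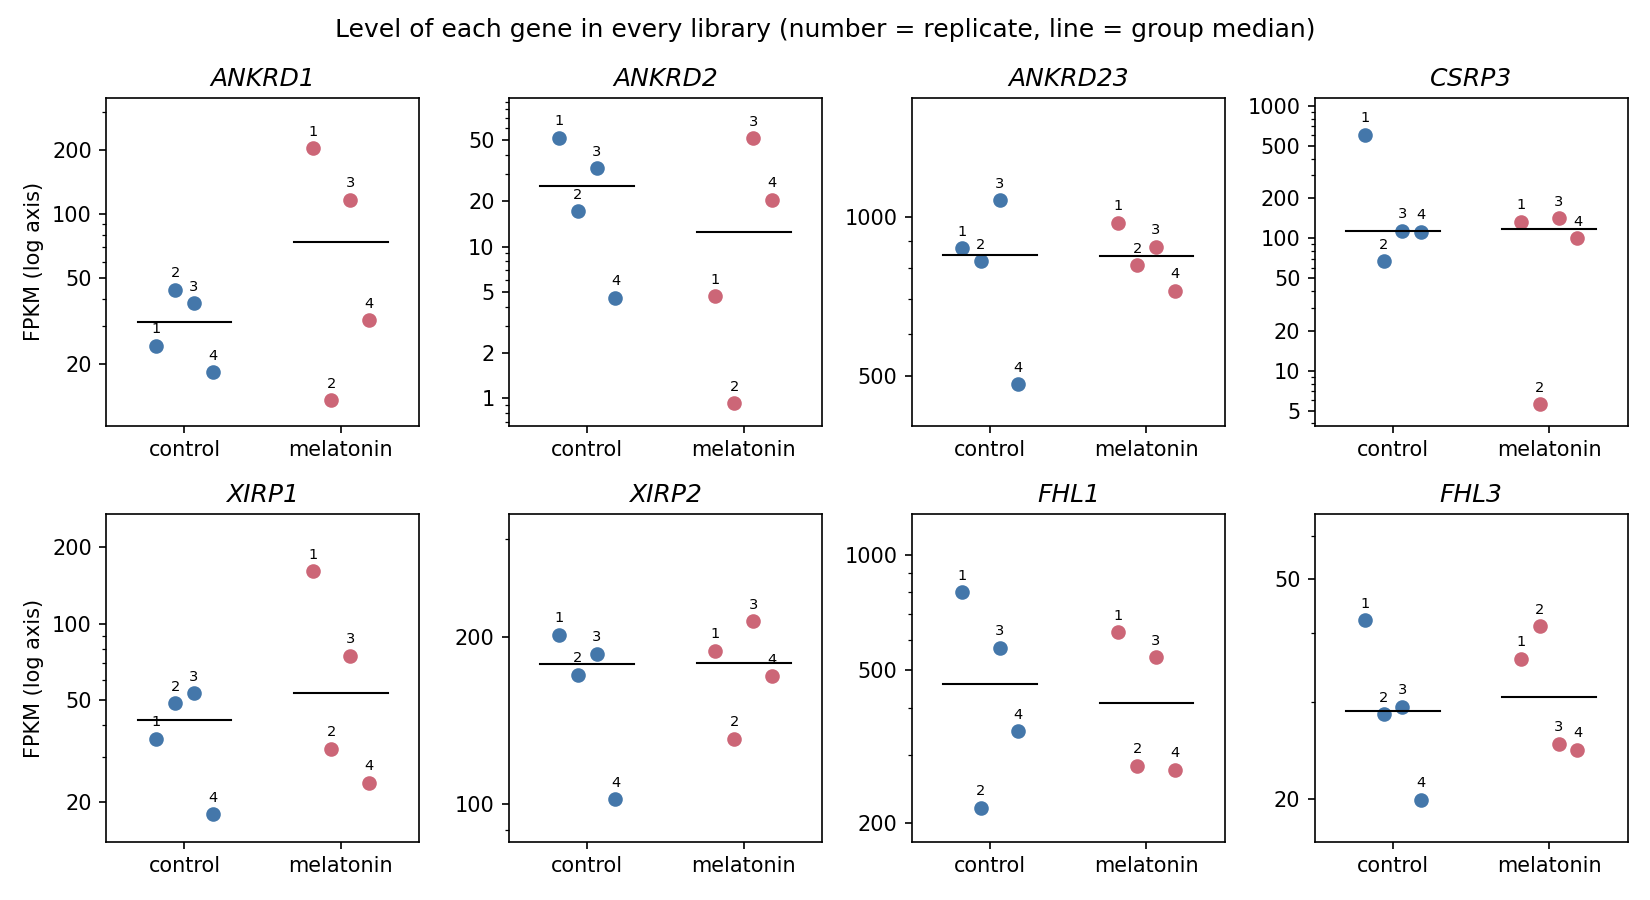
Level of each of the 8 genes in every library, in FPKM on a log axis, with controls in blue, melatonin in red, the replicate number beside each point and the group median as a line. The groups overlap in every panel: the ANKRD1 and XIRP1 panels have melatonin replicates 1 and 3 on top, and the CSRP3 panel has control replicate 1 highest and melatonin replicate 2 lowest.

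The order of the levels in this muscle was led by ANKRD23, also called DARP, at 829.8 ± 176 FPKM over all libraries (SD, n = 8), which was higher than 99.6% of the genes tested. FHL1 followed at 458 ± 207 FPKM and lay below ANKRD23 in 8 of 8 libraries, although the ranges of these neighbours overlapped. XIRP2, at 170.5 ± 37.0 FPKM, lay below FHL1 in every library with no overlap of the ranges. CSRP3, at 160.0 ± 185 FPKM, was below XIRP2 in 6 of 8 libraries. ANKRD1 at 61.3 ± 65.9, XIRP1 at 55.9 ± 46.2, FHL3 at 30.8 ± 8.09 and ANKRD2 at 23.0 ± 20.5 FPKM made up the lower end. None of the neighbours from XIRP2 downwards was separated beyond the spread between libraries: ANKRD1 exceeded XIRP1 in 4 of 8 libraries, XIRP1 exceeded FHL3 in 4 of 8, and FHL3 exceeded ANKRD2 in 5 of 8. The lengths implied by the counts and FPKM values ran from 1134 bases for CSRP3 to 13367 for XIRP2, and the order rests on those lengths. For FHL1, FHL3 and ANKRD1 they were 8042, 6238 and 4738 bases, of gene spans of 11562, 7939 and 9063 bases. Whether these are the lengths of the transcripts present was not tested. Counts ran from 101073 to 344670 for FHL1 and from 72042 to 146648 for ANKRD23. The lead of ANKRD23 therefore depends on its implied length of 2546 bases.

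The 8 genes were unequal in how much they varied from library to library. The lowest and highest libraries of CSRP3 differed 108-fold, those of ANKRD2 55.8-fold, those of ANKRD1 15.1-fold and those of XIRP1 9.05-fold. ANKRD23, XIRP2 and FHL3 varied 2.23-fold, 2.09-fold and 2.12-fold, and FHL1 3.65-fold. Much of this was already present among controls, where the SD of log2(FPKM + 1) was 1.40 for ANKRD2 and 1.38 for CSRP3. Each of these SDs was above that of 99.5% of the 1107 genes expressed at least as highly as ANKRD2. FHL1 (0.82) and XIRP1 (0.69) lay above 97.1% and 95.9% of those genes, and FHL3 (0.43), the steadiest of the 8 among controls, above 82.7%.

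The ankyrin repeat genes did not share one pattern. ANKRD1, also called CARP (ENSSSCG00000010461, Sscrofa11.1 chromosome 14, 102603777 to 102612839, minus strand), measured 24.2, 44.3, 38.2 and 18.2 FPKM in control replicates 1 to 4 and 203, 13.5, 117 and 31.9 FPKM in melatonin replicates 1 to 4. Melatonin replicates 1 and 3 lay above every control, replicate 4 lay within the controls and replicate 2 below all of them. The log2 fold change, melatonin over control, was 1.30 ± 0.66 (SE), with a 95% interval from -0.17 to 2.76 (edgeR adjusted p = 0.511, DESeq2 adjusted p = 0.463). Without melatonin replicates 1 and 3 it was -0.37 (edgeR adjusted p = 0.952), and without melatonin replicate 1 alone 0.61. These libraries have the highest ANKRD1 values, so leaving them out had to lower the fold change. In that fit without both libraries, 0 of the 8 genes and 4.83% of all genes had an unadjusted p under 0.05. The unadjusted edgeR p came below the threshold without melatonin replicate 2 (0.0108) or 4 (0.0485). In those fits 849 and 1882 of all 9821 genes came below it, against 1032 with all libraries. The adjusted p of ANKRD1 over all alternatives ran from 0.257 to 0.952.

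ANKRD2, also called ARPP and known for its preference for slow fibres (ENSSSCG00000010522, chromosome 14, 108944772 to 108958387, plus strand), measured 51.9, 17.0, 32.8 and 4.61 FPKM in control replicates 1 to 4. After melatonin the values were 4.71, 0.929, 51.7 and 20.3 FPKM. Melatonin replicate 3 was close to the highest control and replicate 2 lay below the lowest, on 120 counts, the fewest of any of the 8 genes in any library. For ANKRD2 the log2 fold change was -0.58 ± 0.99, with a 95% interval from -2.79 to 1.62 (edgeR adjusted p = 0.840). It turned to 0.32 without control replicate 1 and melatonin replicate 2, its highest and lowest libraries, and leaving these out had to raise it. ANKRD1 and ANKRD2 lie on the same chromosome and ranked the libraries only partly alike (Spearman rho = 0.33, exact permutation p = 0.428). Melatonin replicate 1 was highest for ANKRD1 and among the lowest for ANKRD2. For both genes, melatonin replicate 2 was lowest and melatonin replicate 3 second highest. Their Pearson r ran from -0.11 to 0.73 with 1 library left out.

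ANKRD23 (ENSSSCG00000008200, chromosome 3, 56776812 to 56782654, plus strand) measured 871, 824, 1074 and 482 FPKM in control replicates 1 to 4 and 975, 809.6, 877 and 725 FPKM in melatonin replicates 1 to 4. Control replicate 4 was lowest and control replicate 3 highest, with all melatonin libraries between them. Its log2 fold change was -0.04 ± 0.25, with a 95% interval from -0.60 to 0.52 (edgeR adjusted p = 0.962). Within the summed FPKM of the 3 ankyrin repeat genes, ANKRD23 took 82.4 to 98.2%. The share of ANKRD1 was 2.56 to 5.00% in controls, and 17.2, 1.64, 11.2 and 4.10% in melatonin replicates 1 to 4. ANKRD2 took 0.913 to 5.47% in controls and 0.113 to 4.94% after melatonin. These shares are ratios within a library, so library scaling does not enter them.

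The Xin repeat genes differed in how far they ranged, 9.05-fold for XIRP1 and 2.09-fold for XIRP2. Over the 8 libraries their ranks were partly shared, with a Spearman rho of 0.79 and a Pearson r of 0.65. The exact permutation p of that rho was 0.0279, and 0.130 adjusted over the 28 pairs of the 8 genes. XIRP1 (ENSSSCG00000034015, chromosome 13, 23867474 to 23876852, minus strand) is typed as a pseudogene in the deposited table and as protein coding in RefSeq for the same build. It measured 35.4, 48.8, 53.4 and 17.8 FPKM in control replicates 1 to 4 and 161, 32.3, 75.0 and 23.7 FPKM in melatonin replicates 1 to 4. Melatonin replicates 1 and 3 again lay above every control, and replicates 2 and 4 within the controls. The log2 fold change was 0.69 ± 0.52, with a 95% interval from -0.48 to 1.87 (edgeR adjusted p = 0.625). Without melatonin replicates 1 and 3 it was -0.39 (edgeR adjusted p = 0.952), and without replicate 1 alone 0.04. Here too the highest libraries were left out, which had to lower the fold change. On the opposite strand XIRP1 overlaps an unnamed gene at a mean of 0.0865 FPKM, and none of the other 7 genes overlaps another gene of the table.

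XIRP2, the longer relative of XIRP1 (ENSSSCG00000015917, chromosome 15, 73422267 to 73741134, plus strand), measured 202, 171, 186 and 102 FPKM in control replicates 1 to 4. After melatonin it measured 189, 131, 213 and 169.7 FPKM. In FPKM, control replicate 4 was lowest and melatonin replicate 3 highest. Its log2 fold change was -0.01 ± 0.25, with a 95% interval from -0.57 to 0.54 (edgeR adjusted p = 0.985). XIRP1 took 14.9 to 22.3% of the summed FPKM of the Xin genes in controls and 46.1, 19.8, 26.0 and 12.2% in melatonin replicates 1 to 4.

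ANKRD1 and XIRP1 were high in the same libraries. Across the 8 libraries their log2(FPKM + 1) values had a Pearson r of 0.90 (two-sided exact permutation p = 0.00223, adjusted over the 28 pairs of the 8 genes 0.0625) and a Spearman rho of 0.86 (exact permutation p = 0.0107, adjusted 0.1). Without melatonin replicates 1 and 3, the libraries farthest from the median of ANKRD1, r was 0.59 (exact permutation p = 0.222). Leaving out the highest libraries narrows the range, so that value cannot show what the relation rests on. The adjusted p of 0.0625 was the smallest among the 28 Pearson values, and none of the Pearson or Spearman values passed. By Pearson p, the next were ANKRD2 with CSRP3 (r = 0.75, rho = 0.74, exact permutation p = 0.0192 and 0.0458) and ANKRD23 with XIRP2 (r = 0.82, rho = 0.76, exact permutation p = 0.0215 and 0.0368). Adjusted p values were 0.200 for both Pearson values and 0.160 and 0.147 for the Spearman values. Without the 2 libraries farthest from the median of the first gene, r was 0.45 and 0.47 for these pairs. By rank, ANKRD23 with XIRP1 had the smallest p of the 28 (rho = 0.90, exact permutation p = 0.00456, adjusted 0.1), with an r of 0.73 (exact permutation p = 0.0479, adjusted 0.223). CSRP3 with FHL1 had a rho of 0.86 (exact permutation p = 0.0107, adjusted 0.1) and an r of 0.66 (exact permutation p = 0.0451, adjusted 0.223). These pairs had an r of 0.89 and 0.88 without the 2 libraries farthest from the median of the first gene (exact permutation p = 0.0167 and 0.00833).

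**Figure D2:**
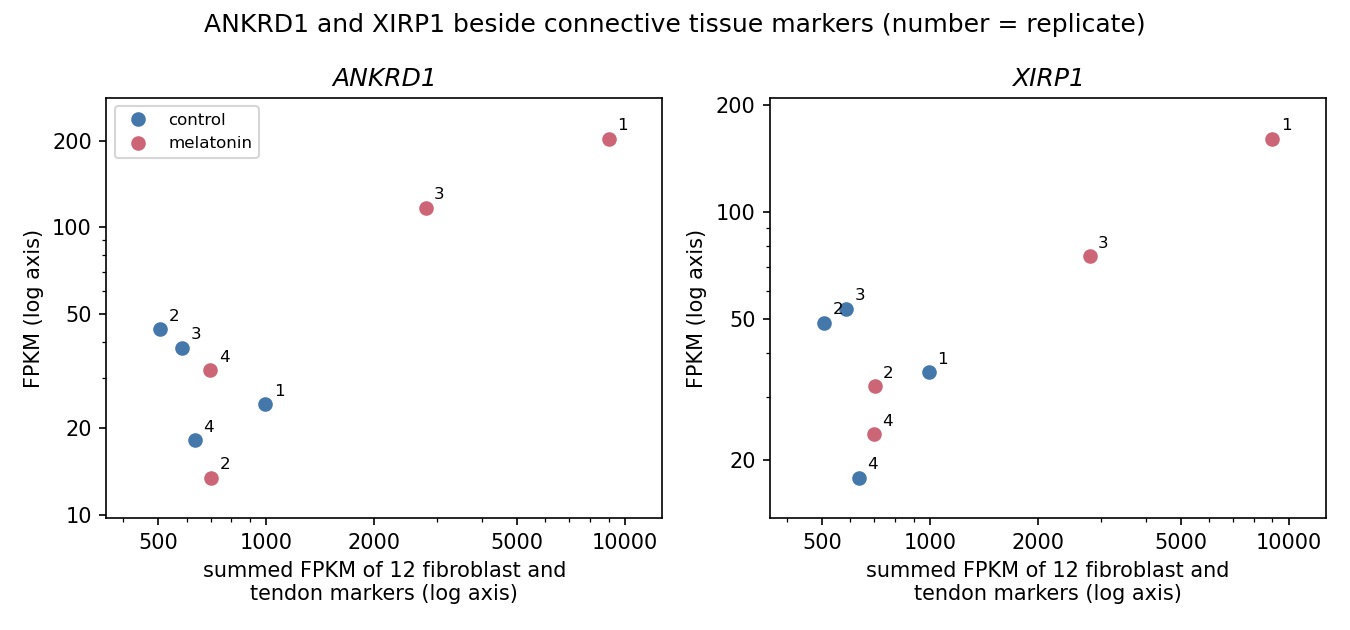
ANKRD1 (left) and XIRP1 (right) in FPKM against the summed FPKM of 12 fibroblast and tendon markers, both on log axes, with 1 point per library and the replicate number beside it. Melatonin replicates 1 and 3 are at the upper right in both panels, at 9002 and 2786 FPKM of markers, and the other 6 libraries lie at 506 to 994 FPKM.

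The libraries high in ANKRD1 and XIRP1 were also those high in connective tissue RNA. Of the 11 fibroblast and tendon markers that were tested, 10 had a log2 fold change above 0 and 8 of these an unadjusted p under 0.05, where 6.67% of all genes had such a p and a higher level. With melatonin replicates 1 and 3 left out, 10 of the 11 lay above 0 but 0 had such a p, and their median was 0.19 in place of 1.48. The summed marker level was 506 to 994 FPKM in controls and 699 to 9002 FPKM after melatonin. TNMD, which encodes tenomodulin of tendon cells, measured 139 and 37.7 FPKM in melatonin replicates 1 and 3 and 0.463 to 1.12 FPKM in the other 6 libraries. THBS4, a matrix protein of tendon and of fibre ends, measured 283 and 179 FPKM there and 10.6 to 23.4 FPKM elsewhere. SCX, a tendon transcription factor, was listed at 0 in control replicate 1 and melatonin replicate 4 and did not exceed 0.896 FPKM. LUM and POSTN did not follow this split, with 31.3 and 10.6 FPKM in melatonin replicate 1 and 29.5 and 10.8 FPKM in control replicate 1. COL3A1 did not follow it either, at 361 FPKM in melatonin replicate 3 and 443 FPKM in control replicate 1. Most of the 2 high sums came from COL1A1 and COL1A2. These measured 3457 and 3550 FPKM in melatonin replicate 1 and 913 and 908 FPKM in melatonin replicate 3. Summed adipocyte markers were highest in the same libraries, with 219 and 194 FPKM over 5 genes in melatonin replicates 1 and 3 and 13.7 to 126 FPKM elsewhere. The 126 FPKM belonged to control replicate 3, whose mean log2(FPKM + 1) of these genes, 3.55, was close to the 3.81 of melatonin replicate 3. CIDEC was higher in that control, at 6.61 against 4.81 FPKM in melatonin replicate 3, while ADIPOQ, PLIN1 and FABP4 were lower. All 4 adipocyte markers tested had a log2 fold change above 0 (median 1.62), 0 of them with an unadjusted p under 0.05. Without melatonin replicates 1 and 3, 3 of 4 lay above 0 (median 0.31). The part of connective tissue and fat in the ANKRD1 and XIRP1 values was not tested. In the 6 libraries with 506 to 994 FPKM of markers, ANKRD1 ran from 13.5 to 44.3 FPKM and XIRP1 from 17.8 to 53.4 FPKM.

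CSRP3 (ENSSSCG00000013354, chromosome 2, 40215353 to 40240616, plus strand) measured 606, 67.1, 114 and 112 FPKM in control replicates 1 to 4 and 134, 5.59, 142 and 99.9 FPKM in melatonin replicates 1 to 4. Of the 8 libraries, 6 lay between 67.1 and 142 FPKM, control replicate 1 lay far above them and melatonin replicate 2, on 376 counts, far below. The log2 fold change was -1.34 ± 0.87, with a 95% interval from -3.28 to 0.60 (edgeR adjusted p = 0.578). DESeq2 gave no p here, as it does for a gene with an outlying count. Without control replicate 1 the log2 fold change was -0.18, and without both of these libraries 0.21 ± 0.19 (edgeR adjusted p = 0.795). They are the highest and lowest libraries of CSRP3, so leaving them out had to raise the fold change. The related CSRP1 and CSRP2, which encode LIM proteins of smooth muscle and other cells, were low, and CSRP3 took 93.5 to 99.1% of the summed FPKM of the 3 genes in 7 libraries and 59.6% in melatonin replicate 2.

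FHL1, the main LIM-only protein of skeletal muscle (ENSSSCG00000012699, chromosome X, 111356342 to 111367903, plus strand), measured 799, 219, 574 and 347 FPKM in control replicates 1 to 4 and 629, 282, 541 and 275 FPKM in melatonin replicates 1 to 4. Replicates 1 and 3 were high and replicates 2 and 4 low in both groups, numbers that carry no stated pairing. The log2 fold change was -0.27 ± 0.36, with a 95% interval from -1.09 to 0.54 (edgeR adjusted p = 0.788), and it was 0.06 without control replicate 1. FHL3, a regulator of myogenic transcription (ENSSSCG00000003644, chromosome 6, 93980635 to 93988573, minus strand), measured 42.1, 28.4, 29.3 and 19.9 FPKM in controls and 35.9, 41.1, 25.2 and 24.5 FPKM after melatonin. In FPKM, all melatonin values of FHL3 lay within the range of the controls. Its log2 fold change was 0.01 ± 0.27, with a 95% interval from -0.59 to 0.62 (edgeR adjusted p = 0.989). FHL2, the relative best known from heart, did not exceed 0.819 FPKM in any library and took 0.0891 to 0.161% of the summed FPKM of FHL1, FHL2 and FHL3.

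**Figure D3:**
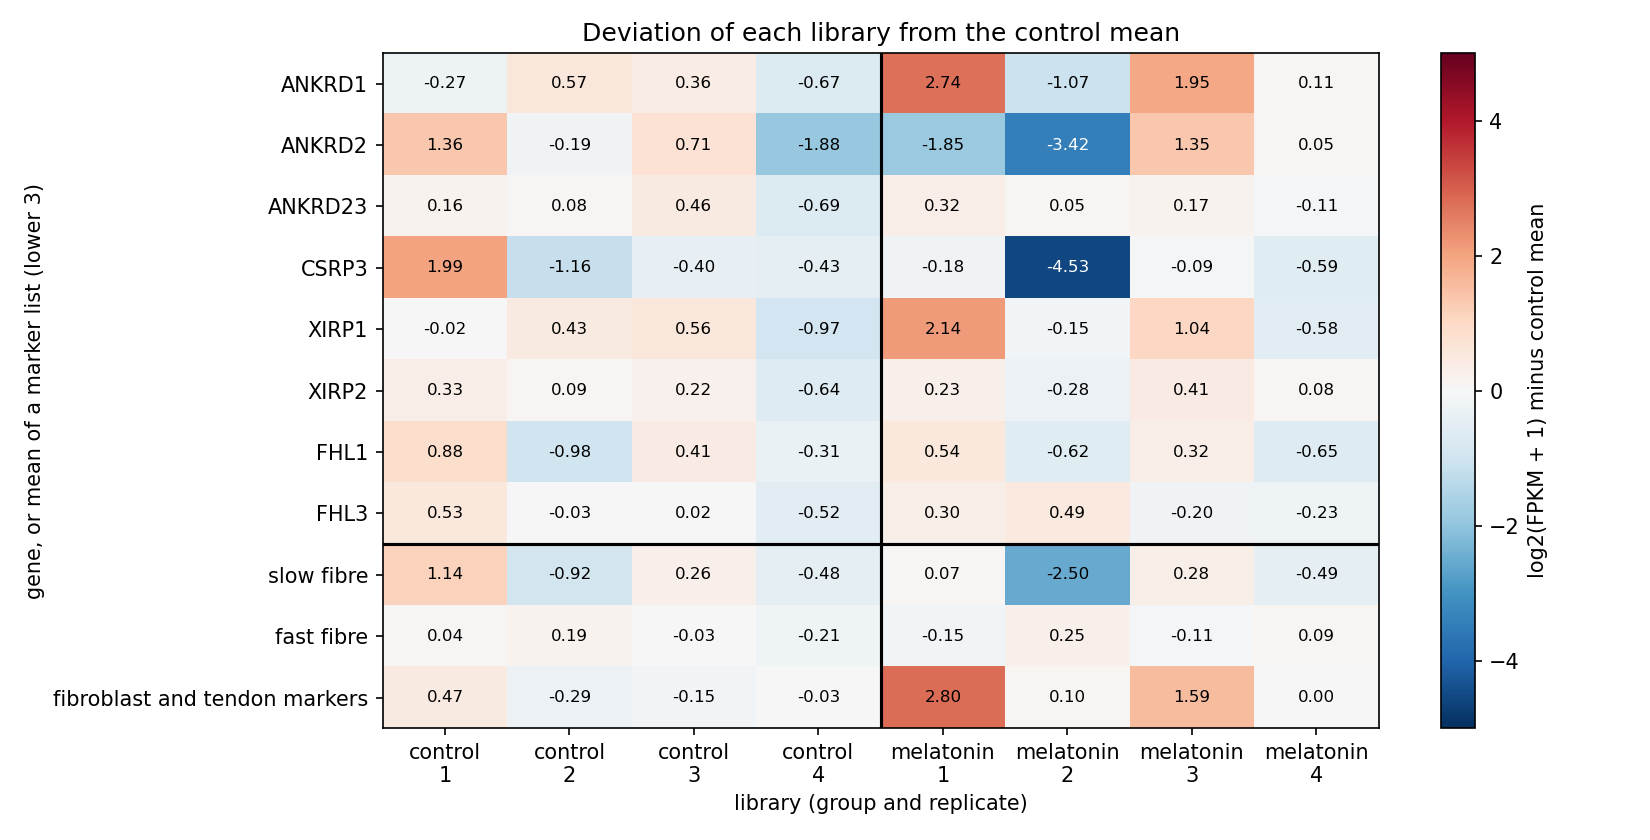
Deviation of each library from the control mean, in log2(FPKM + 1), for the 8 genes (upper rows) and for the mean of the slow fibre, fast fibre, and fibroblast and tendon lists (lower 3 rows), with 1 column per library. Melatonin replicates 1 and 3 stand out for ANKRD1 (2.74 and 1.95), XIRP1 (2.14 and 1.04) and the connective tissue list (2.80 and 1.59). Melatonin replicate 2 stands out for CSRP3 (-4.53), ANKRD2 (-3.42) and the slow fibre list (-2.5).

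CSRP3 varied with the slow fibre genes. The slow fibre level, the mean log2(FPKM + 1) of MYH7, TNNI1, TNNC1, TNNT1, MYL2, MYL3, ATP2A2, CASQ2, TPM3, MYH7B and MYOZ2, was set beside each of the 8 genes. For CSRP3, Pearson's r was 0.97 (two-sided exact permutation p = 0.000223, adjusted over the 8 genes 0.00179) and Spearman's rho 0.98 (exact permutation p = 0.000397, adjusted 0.00317). Without control replicate 1 and melatonin replicate 2, the libraries farthest from the median slow fibre level, r was 0.87 (exact permutation p = 0.0125), so the relation held without them. Slow fibre RNA was lowest in melatonin replicate 2: MYH7, the slow myosin heavy chain, measured 130.0 FPKM there and 403 to 1668 FPKM in the other 7 libraries. Between the groups, 11 of 11 slow fibre genes had a log2 fold change below 0, with a median of -0.63, and 1 of them, MYH7B, an unadjusted p under 0.05 (edgeR adjusted p = 0.453). Without control replicate 1 and melatonin replicate 2, 8 of the 11 lay above 0, with a median of 0.22, and 0 had such a p. These libraries have the highest and the lowest slow fibre level, so leaving them out had to move the list upwards. That fit therefore cannot show what the direction rests on. With 1 library left out, 0 to 1 of the slow fibre genes lay above 0. In bulk RNA of a whole muscle, fewer slow fibres and less slow RNA per fibre cannot be told apart.

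FHL1 also varied with the slow fibre level, with an r of 0.79 (exact permutation p = 0.0104, adjusted 0.0414) and a rho of 0.83 (exact permutation p = 0.0154, adjusted 0.0559). Without the same 2 libraries r was 0.95 (exact permutation p = 0.0139). ANKRD2 gave an r of 0.79 (exact permutation p = 0.0155, adjusted 0.0414) and a rho of 0.81 (exact permutation p = 0.0218, adjusted 0.0559). Without those libraries its r was 0.34 (exact permutation p = 0.486). They have the highest and lowest slow fibre level, so leaving them out narrows the range and cannot show what the relation rests on. The rank correlations of FHL1 and ANKRD2 missed the adjusted threshold. Both Pearson values lost it as well when the values were centred on the mean of each group. Leaving out 1 library ended the FHL1 call for control replicates 1 and 3 and melatonin replicates 1, 3 and 4. It ended the ANKRD2 call for control replicates 1 and 3 and melatonin replicates 2, 3 and 4. XIRP2 gave an r of 0.60 (exact permutation p = 0.124, adjusted 0.249) and a rho of 0.79 (exact permutation p = 0.0279, adjusted 0.0559), and its r was 0.94 without control replicate 4. For ANKRD1, ANKRD23, XIRP1 and FHL3 the r values were 0.43, 0.26, 0.28 and -0.05 and the rho values 0.33, 0.57, 0.43 and 0.19 (smallest exact permutation p = 0.151). With the slow fibre level as a covariate in edgeR, the log2 fold change of CSRP3 was -0.47 ± 0.36 (edgeR adjusted p = 0.608), that of ANKRD2 -0.18 and that of ANKRD1 1.22.

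**Figure D4:**
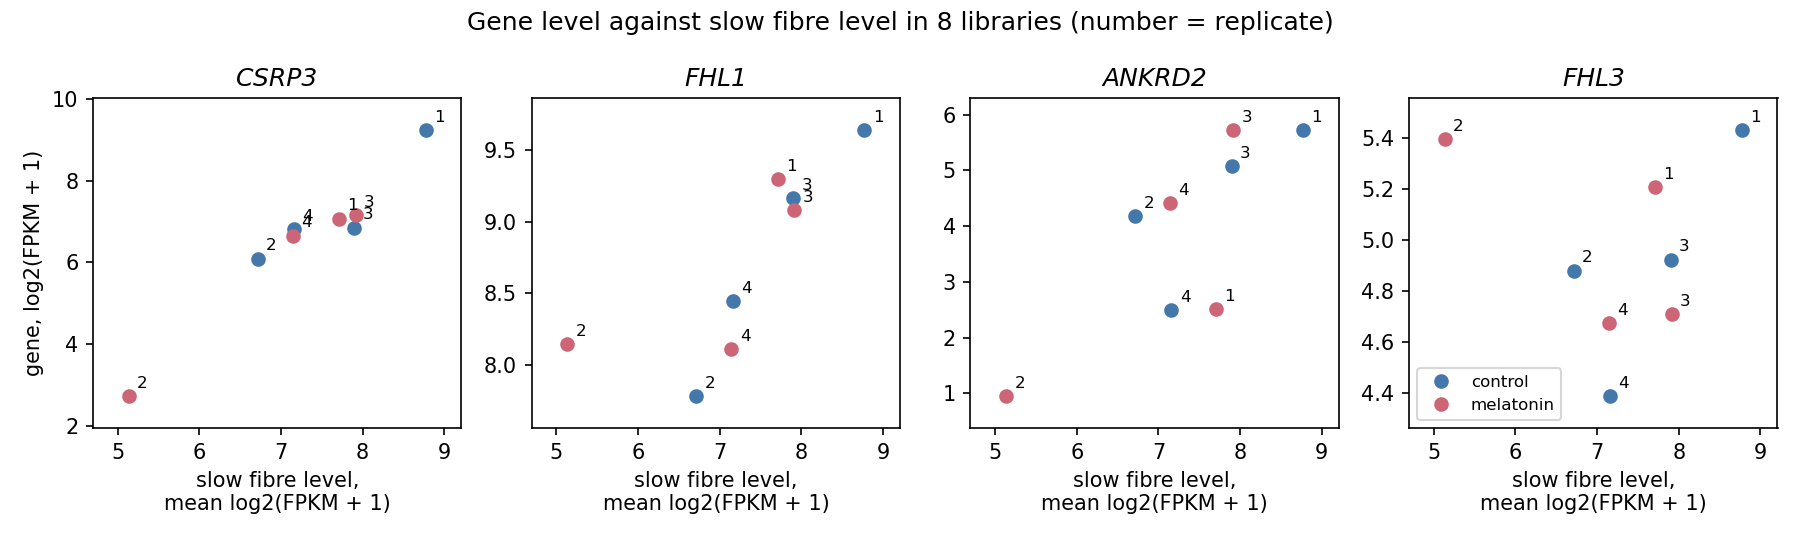
CSRP3, FHL1, ANKRD2 and FHL3, each in log2(FPKM + 1), against the slow fibre level, the mean log2(FPKM + 1) of 11 slow fibre genes, with 1 point per library and the replicate number beside it. CSRP3 follows the slow fibre level most closely (r = 0.97), FHL1 and ANKRD2 less so (0.79 each) and FHL3 least (-0.05).

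The genes most like each of the 8 over the 8 libraries, by Pearson's r of log2(FPKM + 1) among 8914 tested genes with a symbol, are given as a description. CSRP3 was closest to the tubulin gene TUBA1A (r = 0.97, n = 8) and to MYL3 and MYL2, light chains of slow and cardiac myosin (0.97 and 0.96). TUBA1A belongs to a family of near-identical genes whose reads may be shared. XIRP1 was closest to HHIPL2 (0.97), to HBEGF, which encodes a growth factor of the EGF family (0.97), and to the stress-induced transcription factor ATF3 (0.96). ANKRD1 was closest to PDCL (0.98), ALDH18A1 (0.97) and FUT11 (0.96). ANKRD2 was closest to ATAD3A, a protein of mitochondria (0.97), GNA11 (0.96) and HADH, an enzyme of fatty acid oxidation (0.95). XIRP2 was closest to MTHFD2, RAPGEF2 and NRAP, the last an actin-binding protein of fibre ends (0.96, 0.96 and 0.95). ANKRD23 was closest to TMEM204, ZNF473 and ENSA (0.98, 0.96 and 0.95). FHL1 was closest to TLE5, DBNL and TUBB6 (0.98, 0.97 and 0.97), and FHL3 to KLHL23, FERMT2 and AGRN (0.96, 0.95 and 0.90).

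**Figure D5:**
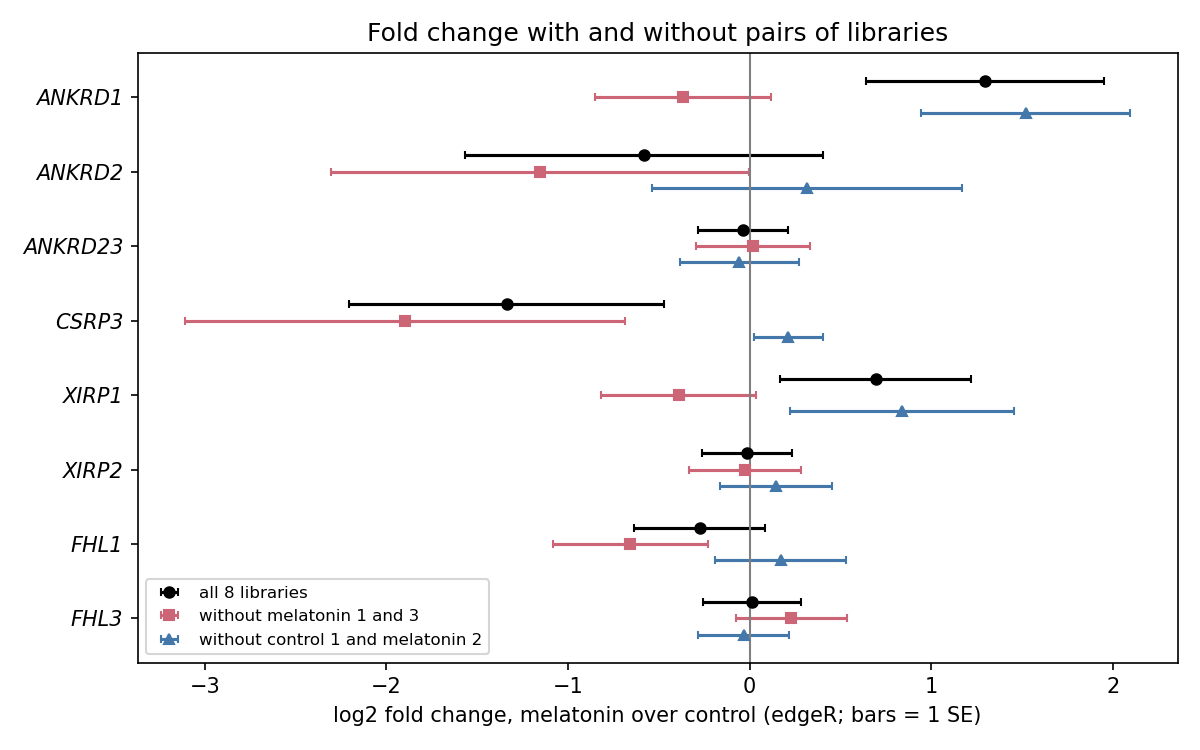
Log2 fold change of each gene, melatonin over control, from edgeR with all 8 libraries (black), without melatonin replicates 1 and 3 (red) and without control replicate 1 and melatonin replicate 2 (blue), with bars of 1 SE. ANKRD1 moves from 1.30 to -0.37 and XIRP1 from 0.69 to -0.39 without the first pair, and CSRP3 moves from -1.34 to 0.21 without the second.

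Pathways around the 8 genes were described by counts, beside a median log2 fold change of -0.00142 over all 9821 genes, of which 6.67% were higher and 3.84% lower at an unadjusted p under 0.05. No gene of these lists passed the adjusted test in edgeR. Relatives of the LIM genes (11 tested, median -0.14) had 2 genes higher at that p and 0 lower. FHL5 measured 1.33 ± 0.433 FPKM in controls and 2.15 ± 0.376 after melatonin (log2 fold change 0.62, edgeR adjusted p = 0.453). PDLIM3, a Z-disc LIM protein, measured 195 ± 20.8 and 320 ± 147 FPKM (0.60, edgeR adjusted p = 0.453), with its highest value, 529 FPKM, in melatonin replicate 3, without which the log2 fold change was 0.35. With 1 library left out, the genes of this list at that p numbered 0 to 3, and without melatonin replicates 1 and 3 there was 1, higher.

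Partners of titin and of the Z-disc (19 tested) lay below 0 in 16 genes, with a median of -0.15, and 0 reached an unadjusted p under 0.05. The smallest p values belonged to DES, the intermediate filament desmin, at 1475 ± 303 and 1178 ± 270 FPKM (-0.41, edgeR adjusted p = 0.519), and to TCAP, which caps titin, at 975 ± 356 and 780.1 ± 314 FPKM (-0.42, edgeR adjusted p = 0.586). Without control replicate 1 and melatonin replicate 2 these log2 fold changes were -0.20 for DES and -0.09 for TCAP, and without control replicate 1 alone -0.22 for TCAP. TTN itself was not analysed here.

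The YAP and TEAD pathway, which turns mechanical tension into transcription and has ANKRD1 among its known targets, had 20 tested genes with a median of 0.02. At an unadjusted p under 0.05 there were 2 higher genes, CCN2 and AXL, and 2 lower, TEAD4 and AMOT. AXL and AMOT were picked out after their values were seen. There were 0 higher and 1 lower without melatonin replicates 1 and 3, and with 1 library left out 0 (without control replicate 2) to 7 (without melatonin replicate 4) in all. CCN2, a matrix-associated growth regulator and target of YAP, measured 5.70, 3.41, 2.87 and 5.13 FPKM in control replicates 1 to 4 and 119, 2.27, 18.7 and 2.83 FPKM in melatonin replicates 1 to 4. Its high libraries were those of ANKRD1, melatonin replicates 1 and 3, and the other melatonin libraries lay below every control. Its log2 fold change was 2.81 ± 1.04 (edgeR adjusted p = 0.451), and 0.72 without melatonin replicate 1 alone. Without melatonin replicates 1 and 3, its highest libraries, it had to fall and was -0.62. AXL likewise measured 12.1 and 6.86 FPKM in melatonin replicates 1 and 3 and 2.72 to 4.06 FPKM elsewhere, with a log2 fold change of 0.80 that was 0.07 without them. TEAD4, a DNA-binding partner of YAP, measured 6.44 ± 1.36 and 4.64 ± 0.680 FPKM (-0.53, edgeR adjusted p = 0.461). AMOT, which holds YAP in the cytoplasm, measured 29.6 to 41.6 FPKM in controls and 23.4 to 28.9 FPKM after melatonin (edgeR adjusted p = 0.461). It was the only one of the 20 genes whose groups did not overlap, where 2.2% of all genes had such groups. The log2 fold changes without melatonin replicates 1 and 3 were -0.31 for TEAD4 and, from -0.43 with all libraries, -0.25 for AMOT.

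Genes of SRF and its actin-sensing coactivators (15 tested, median -0.19) had 1 gene higher at an unadjusted p under 0.05 and 0 lower. That gene was TAGLN, which encodes an actin-binding protein of smooth muscle, at a mean of 12.0 FPKM (SD 1.35) and of 20.4 ± 9.70 FPKM (0.63, edgeR adjusted p = 0.446), with 33.9 and 19.96 FPKM in melatonin replicates 1 and 3. Its log2 fold change was 0.36 without melatonin replicate 1 and 0.31 without both, and without both the list had 0 genes higher and 1 lower at that p. ACTC1, the cardiac actin of developing muscle, measured 172 ± 142 and 78.9 ± 28.8 FPKM (-1.18, edgeR adjusted p = 0.479), with 377 FPKM in control replicate 1. The log2 fold change of ACTC1 was -0.50 without that library and -0.30 without it and melatonin replicate 2. Calcineurin, NF-kB and p53 regulators (15 tested, median 0.00) had 1 gene higher, NFATC2, at 0.772 ± 0.113 and 1.63 ± 1.34 FPKM (0.92, edgeR adjusted p = 0.473). NFATC4 followed at 1.95 ± 0.420 and 4.25 ± 3.42 FPKM (0.95, edgeR adjusted p = 0.480). Both had their highest value in melatonin replicate 1, without which the log2 fold changes were 0.30 and 0.39. Without melatonin replicates 1 and 3 they were 0.33 for NFATC2 and -0.10 for NFATC4.

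Genes that mark denervation or regeneration of fibres (7 tested, median -0.10) had 1 gene higher and 1 lower at an unadjusted p under 0.05. NCAM1, an adhesion molecule of denervated and regenerating fibres, measured 1.70 ± 0.261 and 3.29 ± 1.75 FPKM (0.81, edgeR adjusted p = 0.453). MYOD1, the transcription factor that commits cells to muscle, was lower in all melatonin libraries, at 0.988 to 3.03 FPKM against 3.66 to 5.75 FPKM in controls (-1.18, edgeR adjusted p = 0.440). Of all genes, 2.2% had groups that did not overlap in FPKM. Without melatonin replicates 1 and 3 the log2 fold change of NCAM1 was 0.55 and that of MYOD1 -0.94, with 0 genes higher and 1 lower at that p. Without melatonin replicate 3 alone NCAM1 was at 0.53.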

How the data were processed

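The series holds 8 poly(A) RNA libraries. Per the file headers, the deposited table gives each gene's raw count and FPKM value per library, and the authors scaled FPKM by length and library. The submitters' processing notes list FastQC, StringTie, DESeq2 and Sscrofa11.1, with no role for any of them. For the aligner, the annotation release and the use of strand in counting, the sources used here say nothing. Columns that could not be mapped numbered 0.

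Tested were the 9821 of 23235 genes whose FPKM averaged 1 or more across libraries, and all 8 genes described passed. Melatonin was compared with control by edgeR 4.0.16 under R 4.3.3 (TMM scaling, legacy quasi-likelihood fit, no covariate), with Benjamini-Hochberg adjustment over all tested genes at a threshold of 0.05. TMM factors ran from 0.851 for control replicate 2 to 1.185 for melatonin replicate 3. They do not enter FPKM, so FPKM ranks of close libraries can differ from ranks of scaled counts. The SE is the fold change divided by the root of F, and 95% intervals use the degrees of freedom of the test. The test was checked on simulated counts. Of 50 genes planted at each size it recovered 5 at 1.5-fold, 20 at 2-fold and 50 at 4-fold, with 5 false calls. The simulation gave every gene the same biological coefficient of variation, 28.0%, while the 8 genes varied unequally. It therefore does not give the power for each of them. Correlations used log2(FPKM + 1) and exact permutation over 40320 pairings, in Python 3.11.15 with SciPy 1.17.1, and plots Matplotlib 3.10.9.

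Alternatives were other scalings, DESeq2 1.42.0, limma 3.58.1 on log2(FPKM + 1) or log2(FPKM + 0.1), a bias-adjusted test, other filters, a replicate block and libraries left out. The correlations between the 8 genes, the slow fibre covariate and leaving out control replicate 1 with melatonin replicate 2 were chosen after seeing the data. The genes and lists were chosen with earlier results of these data known. From each of 6 pathway lists the text names the 2 tested genes with the smallest unadjusted p, and for each of the 8 genes the 3 most like it. Other genes named from the lists were picked after their values were seen.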

Additional observations from a re-analysis of the deposited data

Results flagged for a closer look

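Each gene's FPKM values were checked in each group of 4 libraries for a library far from the others, in 16 groups in all, of which chance alone marks about 1 in 20. In 1 group a library stood apart: CSRP3 in control replicate 1 measured 606 FPKM, where the next highest control measured 114 FPKM and the lowest 67.1 FPKM. That gap takes 0.912 of the range of the group, above Dixon's critical value for 4 samples. The same library had the highest summed level of slow fibre genes, 11188 FPKM, and the highest FHL1 value, 799 FPKM. Melatonin replicate 2, at 5.59 FPKM, did not pass this rule within its own group. The rule was run on FPKM without logs, and its outcome depends on that choice. In log2(FPKM + 1), melatonin replicate 2 lay at -4.53 from the control mean of CSRP3. Melatonin replicates 1, 3 and 4 lay at -0.18, -0.09 and -0.59. Control replicate 1 lay at 1.99 and the other controls at -1.16 to -0.40. The rule was not run on that scale.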

How the results depend on the processing

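No alternative called any of the 8 genes at an adjusted p under 0.05. Over all genes the adjusted calls were 0 with edgeR, 65 with DESeq2, 1 without control replicate 1 and melatonin replicate 2, and 0 to 15 with 1 library left out (15 without melatonin replicate 4). At an unadjusted p under 0.05, 1032 genes became 556 or 559 with limma (pseudocount 1 or 0.1), 1789 with no filter, 434 with a filter at a mean FPKM of 5, 474 without melatonin replicates 1 and 3, 674 without control replicate 1 and melatonin replicate 2, and 568 to 1882 with 1 library left out. Of the 8 genes, 1 (ANKRD1) came under that p with no filter, without control replicate 1 and melatonin replicate 2, and in some fits with 1 library left out (0 to 1 genes).

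Directions turned as follows, in log2 fold change, and the cause was not tested. Leaving out the highest or lowest libraries of a gene has to move its fold change. Such a turn therefore cannot show what the direction rests on. Without melatonin replicates 1 and 3: ANKRD1 -0.37, XIRP1 -0.39, ANKRD23 0.018, CCN2 -0.62 and NFATC4 -0.10. List medians turned there from -0.19 to 0.066 (SRF), from -0.10 to 0.084 (denervation) and from 0.023 to -0.0011 (YAP), and that of the calcineurin list went from 0.0023 to 0.19. Without control replicate 1 and melatonin replicate 2: ANKRD2 0.32, CSRP3 0.21, FHL1 0.17, XIRP2 0.14 and FHL3 -0.032, with medians of 0.22 for the slow fibre, -0.016 for the YAP and -0.011 for the calcineurin list. With the slow fibre covariate: FHL1 0.089, XIRP2 0.064 and FHL3 -0.10. The small changes of ANKRD23 and XIRP2 became 0.11 and 0.11 with either limma fit and 0.0055 and 0.030 with the stricter filter, and FHL3 became -0.0023 with no filter. With 1 library left out the ranges were 0.61 to 1.64 for ANKRD1, -1.52 to -0.08 for ANKRD2, -0.23 to 0.10 for ANKRD23, -1.62 to -0.18 for CSRP3, 0.04 to 0.95 for XIRP1, -0.20 to 0.076 for XIRP2, -0.48 to 0.057 for FHL1 and -0.21 to 0.19 for FHL3.

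Correlations with the slow fibre level, with 1 library left out, ran from 0.91 to 0.98 for CSRP3, 0.70 to 0.94 for FHL1, 0.54 to 0.89 for ANKRD2, 0.53 to 0.94 for XIRP2 and -0.48 to 0.67 for FHL3. Centred on group means, r was 0.76 for ANKRD2 and 0.81 for FHL1. The replicate block gave 0 adjusted and 1061 unadjusted calls, and turned ANKRD23 to 0.023 and XIRP2 to 0.024. The numbers did not pair the libraries (r of same-numbered deviations 0.18, 0.07, 0.17 and -0.03), and not every library correlated best with its own number. The 4 libraries per group, with a biological coefficient of variation of 28.0%, limit what can be seen. The ANKRD2 value of melatonin replicate 2 rests on 120 counts, in a library of 59593451.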
